A study of Mus musculus with 6 samples.

Results

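The genes described here are the mouse matrix metalloproteinases (Mmp), the ADAMTS proteases (Adamts), their tissue inhibitors (Timp) and the plasminogen activator genes Plau, Plat and Plaur. They were chosen by name alone: every symbol of the count table formed of Mmp with a number and an optional a or b, Adamts with a number or Timp with a digit, together with Plau, Plaur and Plat. This gave 49 genes of 55418 in the table, namely 23 Mmp, 19 Adamts and 4 Timp genes and 3 of plasminogen activation. RNA came from 6 samples of MOC2, a mouse oral carcinoma line labelled as HPV negative HNSCC, with 3 samples of genotype CRISPR Control and 3 of genotype EphA4 Knockout. The knockout cells are 1 clone, H3, so a difference between the groups cannot be told apart from a difference between this clone and the control cells. All samples were untreated, carry 1 batch label and were grown in medium with serum, EGF, hydrocortisone and insulin. The labels do not say whether replicate samples were grown separately; the spread behind each p-value may then be only technical.

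Matrix metalloproteinases are zinc enzymes, secreted or held at the cell surface, that cut collagens, other matrix proteins and each other's inactive precursors. ADAMTS proteases are secreted zinc enzymes that carry thrombospondin repeats; some cut proteoglycans and some trim procollagens. TIMP proteins bind the active site of these enzymes, and urokinase, made from Plau and held at the cell surface by the receptor made from Plaur, turns plasminogen into plasmin, which in turn activates several metalloproteinases. In squamous carcinomas these systems are known for their part in local invasion, with some of the enzymes made by the tumour cells and others by stromal cells.

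The library totals ran from 35115926 to 41775031 counts. Epha4, the edited gene, was not lower in the libraries labelled EphA4 knockout: its counts were 1907, 2110 and 2250 in control against 3483, 3815 and 3606 in the knockout-labelled libraries (log2 fold change 0.86, SE 0.06, adjusted p = 2.1e-06 from the quasi-likelihood test of edgeR). All directions below are therefore those of the libraries labelled EphA4 knockout against control. EphA4 knockout replicate 3 stood apart from the rest, with a chi-square per degree of freedom of 34.1 to 35.1 against the other libraries of its group, compared with 4.63 to 9.54 for the other 4 pairs within a group. Among epithelial markers Krt8, Krt18, Epcam and Cdh1 were abundant, while the squamous markers Krt5 and Trp63 had 2 and 4 counts over all 6 libraries. Krt8, Krt18 and Cdh1 were called higher and Epcam lower in the knockout-labelled libraries. Krt14 had 424 counts over control and 199 over the knockout-labelled libraries and was called lower. Krt6a had 31 and 209 and was called higher. Of the fibroblast and pericyte markers all 5 tested were lower, with a summed level of 48.2 to 51.7 CPM (counts scaled to one common library total) in control and 1.91 to 2.03 CPM in the knockout-labelled libraries; Lum was at 0 throughout, and Col1a2, too low to test, had 5 counts over control and 29 over the knockout-labelled libraries. The leukocyte markers summed to 40.1 to 47.1 CPM in control and 12.1 to 13.9 CPM in the knockout-labelled libraries, with Cd3e, Itgam and Adgre1 at 0 in all 6. Of the 3 leukocyte markers tested, Cd68 and Ly6g were lower and Csf1r was higher, at 4.72 ± 0.262 CPM in control against 7.75 ± 0.699 CPM (SD, n = 3 each; adjusted p = 0.003 in edgeR), and Ptprc, too low to test, had 14 counts over control and 41 over the knockout-labelled libraries. The summed levels of both lists, though not every marker in them, were lower where most protease genes below were lower, and their part in those results was not tested. In bulk RNA, fewer cells of a type and less RNA per cell cannot be told apart.

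Most of the detectable protease genes were lower in the knockout-labelled libraries, while Adamts1 and the urokinase receptor gene Plaur, both abundant, were higher. Of the 49 genes, 29 passed the filter on low counts; 22 of these fell, 2 rose and 5 did not pass an adjusted p of 0.05. Over all 15199 genes tested 38.8% were called lower and 32.7% higher. The median log2 fold change was -2.37 over the 29 genes and -0.04 over all genes tested. Groups did not overlap, with every knockout-labelled library below every control library, for 24 of the 29 genes, and with every knockout-labelled library above for 2, against 41.4% and 34.6% of all genes tested. A fall of at least 8-fold was called for 10 of the 29, against 7.99% of all genes tested. Without EphA4 knockout replicate 3 the counts were 23 lower and 3 higher, against 6029 and 5309 of all 15764 genes tested there.

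The filter shapes these counts. Of the 29 genes, 12 reached its level of 0.271 CPM in every control library but not in every knockout-labelled library. A gene could enter this set only by being lower in the knockout-labelled libraries or near the limit. The 12 were Mmp2, Mmp3, Mmp9, Mmp10, Mmp12, Mmp13, Mmp17, Mmp19, Mmp23, Mmp28, Adamts17 and Timp3. Counts by class below that rest on these 12 genes carry the same limit. Of those 12 genes 10 were called lower, and over all 1606 genes of that kind 81.8% were, so the share is near the background. Their median log2 fold change was -3.27, against -3.74 over the 1606. The other 17 genes reached the level in all 6 libraries: 12 fell, 2 rose and 3 did not pass, compared with 36.8% lower and 36.6% higher among 12487 such genes. Their median log2 fold change was -1.41, against 0.02 for the 12487. The counts above of groups without overlap and of falls of at least 8-fold were not split in this way. Their percentages over all genes are thus not a like background. Since the genes were chosen by name with earlier results known, these counts carry no p of their own.

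**Figure D1:**
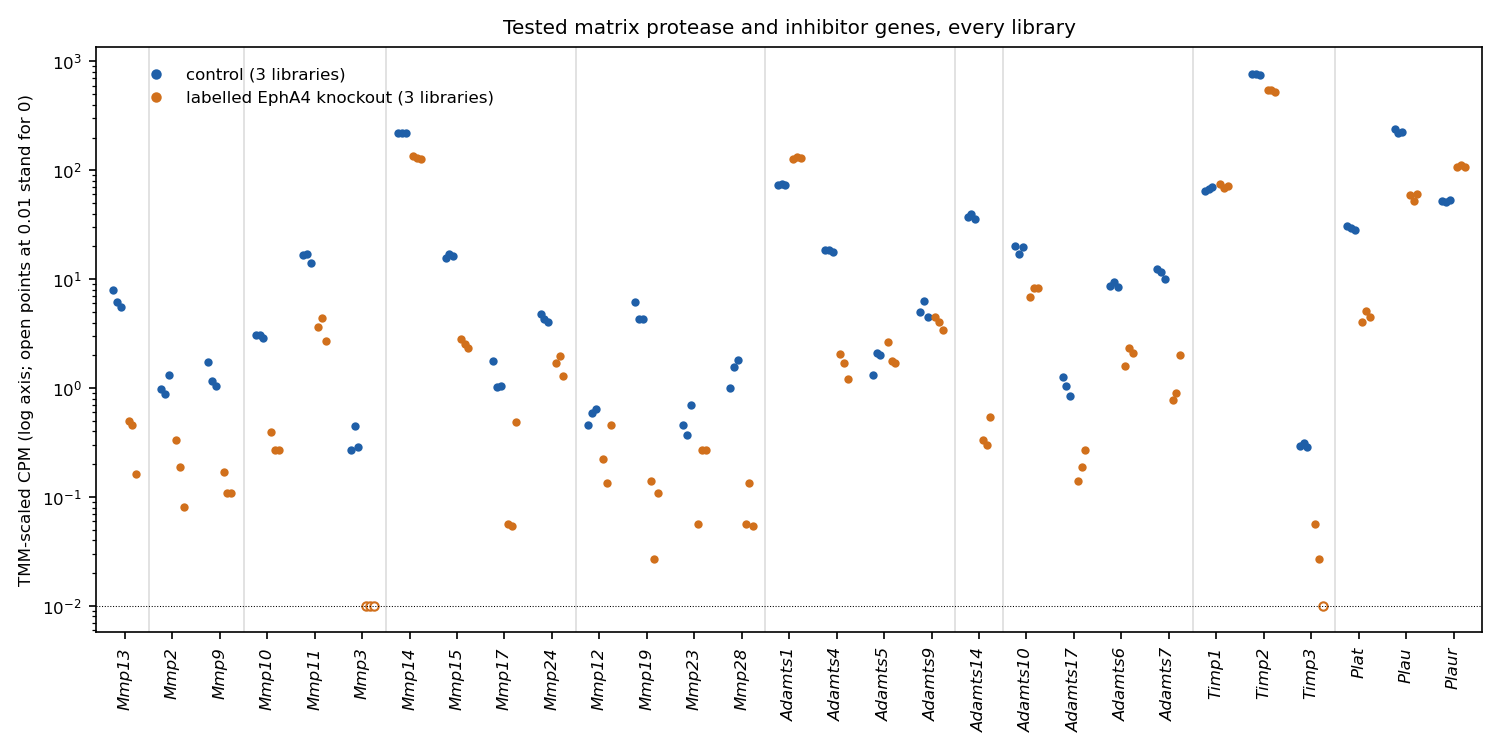
TMM-scaled CPM on a log axis for the 29 tested genes, one point per library, 3 control libraries in blue and 3 knockout-labelled libraries in orange; open points stand for 0 counts, and grey lines separate the protease classes. The 2 groups overlap in Mmp12, Adamts5 and Timp1 only, and Adamts1 and Plaur alone have every orange point above every blue one.

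Of the 4 genes grouped here as collagenases, a class named for cutting fibrillar collagen, only Mmp13 was tested. It had 296, 218 and 230 counts in control against 18, 17 and 6 in the knockout-labelled libraries, all of the latter far below the lowest control. The mean level fell 17.3-fold, from 6.56 ± 1.28 to 0.376 ± 0.185 CPM (SD, n = 3 each; log2 fold change -4.11, SE 0.41, adjusted p = 2.1e-05 in edgeR). Mmp8 had 5 counts in all, every one in control, and Mmp1b had 8 counts over the control and 9 over the knockout-labelled libraries. Mmp1a, a polymorphic pseudogene in the GENCODE M21 annotation, had 0 counts in every library. Both gelatinase genes, whose products cut denatured collagen and type IV collagen of basement membranes, fell at low levels. Mmp9 had 65, 41 and 44 counts in control against 6, 4 and 4 in the knockout-labelled libraries (log2 fold change -3.33, SE 0.45, adjusted p = 0.00014 in edgeR). Mmp2 had 36, 31 and 55 counts against 12, 7 and 3 (log2 fold change -2.37, SE 0.53, adjusted p = 0.0033 in edgeR). No library of one group reached into the range of the other for either gene. Like Mmp13, both passed the filter through control alone.

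All 3 stromelysin genes fell, though Mmp10 and Mmp3 are among the genes that passed the filter through control alone. Mmp10, which encodes stromelysin-2, had 113, 108 and 119 counts in control against 14, 10 and 10 in the knockout-labelled libraries, 9.50-fold lower (log2 fold change -3.25, SE 0.31, adjusted p = 1.6e-05 in edgeR). Mmp3, for stromelysin-1, an activator of other metalloproteinases, had 10, 16 and 12 counts in control and 0 in every knockout-labelled library. With the empty group set to a floor of 3 counts in total, it was at least 12.2-fold lower (adjusted p = 0.0034 in edgeR). Mmp11, for stromelysin-3, was the highest of the 3 and changed least: its counts were 615, 604 and 588 against 131, 164 and 99, a fall from 15.9 ± 1.60 to 3.60 ± 0.877 CPM (SD, n = 3 each; log2 fold change -2.14, SE 0.19, adjusted p = 1.1e-05 in edgeR). Its exons overlap those of Chchd10.

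Mmp13, Mmp3 and Mmp10 lie in a run of 10 neighbouring Mmp genes on chromosome 9, in the RefSeq order Mmp13, Mmp12, Mmp1b, Mmp3, Mmp1a, Mmp10, Mmp8, Mmp27, Mmp20 and Mmp7, between Dcun1d5 and Tmem123. Of these 10 genes 3 fell, 1 (Mmp12) was tested and not called, 3 had counts too low to test and 3 had 0 counts in all libraries. All 4 tested genes of the run passed the filter through control alone. Of all tested genes of that kind 81.8% were called lower. Promoters of this run are known in textbooks for a binding site of AP-1, the dimer of FOS and JUN proteins, so RefSeq promoter sequences (build GRCm38.p6; 33 of the 49 genes had an entry, some with more than 1 start site) were searched for TGANTCA, which reads the same on both strands, in the 250 bases before the start. The motif was found for 9 of 33 genes: Mmp10, Mmp12, Mmp13, Mmp1a, Mmp1b, Mmp20, Mmp3, Mmp7 and Plaur. By window it occurred in 9 of the 36 windows of these genes, and in 6.75% of all 32851 RefSeq windows of this length. The motif was chosen because of this run, to which every gene found except Plaur belongs. The comparison is therefore a description and not a test of the 49 genes. The 120 bases before the start are shown 5′ to 3′ for 3 genes of the run that fell, for Mmp7 of the same run with 0 counts (the first of its start sites), for Plaur, which carries the motif and rose, and for Adamts14 and Adamts1, which lack it and fell and rose; capitals mark the motif.
Mmp13: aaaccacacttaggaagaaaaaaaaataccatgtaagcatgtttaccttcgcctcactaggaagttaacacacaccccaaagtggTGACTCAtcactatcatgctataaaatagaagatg
Mmp3: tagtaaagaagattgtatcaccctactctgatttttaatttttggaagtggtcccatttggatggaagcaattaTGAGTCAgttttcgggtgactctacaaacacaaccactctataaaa
Mmp10: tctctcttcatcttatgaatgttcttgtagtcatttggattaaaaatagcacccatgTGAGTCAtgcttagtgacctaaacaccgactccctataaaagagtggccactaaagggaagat
Mmp7: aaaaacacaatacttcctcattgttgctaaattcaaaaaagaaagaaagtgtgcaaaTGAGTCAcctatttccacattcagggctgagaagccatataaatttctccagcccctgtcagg
Plaur: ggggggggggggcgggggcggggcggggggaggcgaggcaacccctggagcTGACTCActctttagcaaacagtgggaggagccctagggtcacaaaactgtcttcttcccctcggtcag
Adamts14: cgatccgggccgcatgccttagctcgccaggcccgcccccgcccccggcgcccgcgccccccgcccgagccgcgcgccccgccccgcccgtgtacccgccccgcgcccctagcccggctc
Adamts1: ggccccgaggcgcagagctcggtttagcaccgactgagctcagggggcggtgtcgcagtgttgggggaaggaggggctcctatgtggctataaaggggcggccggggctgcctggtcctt

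These windows are chr9:7272394-7272513, plus strand (Mmp13), chr9:7445702-7445821, plus strand (Mmp3), chr9:7502222-7502341, plus strand (Mmp10), chr9:7691970-7692089, plus strand (Mmp7), chr7:24462363-24462482, plus strand (Plaur), chr10:61273420-61273539, minus strand (Adamts14) and chr16:85803114-85803233, minus strand (Adamts1), all in GRCm38.p6, an earlier assembly than the one the counts were aligned to. Counting the last base before the start as -1, the motif began at -35 in Mmp13, -46 in Mmp3, -63 in Mmp10, -63 in Mmp7 and -69 in Plaur. The Adamts14 window had a GC content of 86.7%, against 35.8% to 39.2% in the 4 windows from chromosome 9. Among the 9 genes with the motif 3 fell, 1 rose, 1 was not called and 4 were not tested. Of these, Mmp13, Mmp3, Mmp10 and Mmp12 passed the filter through control alone, where 81.8% of all tested genes were called lower. Among the 24 genes without the motif 9 fell, 1 rose, 3 were not called and 11 were not tested. Over all genes tested 38.8% were lower and 32.7% higher. A match to these letters is a description and not a measured binding site, and whether the motif bears on these changes was not tested.

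The membrane-type enzymes are tethered to the cell surface and act on matrix next to the cell. Mmp14, for MT1-MMP, which cuts collagen and activates the Mmp2 product, was the most abundant of the Mmp genes in both groups. It had 8205, 7706 and 9129 counts in control against 4792, 4816 and 4654 in the knockout-labelled libraries, with no overlap. The level fell 1.68-fold, from 220 ± 1.61 to 130 ± 3.68 CPM (SD, n = 3 each; log2 fold change -0.75, SE 0.03, adjusted p = 1.3e-07 in edgeR), less than any other called Mmp gene. Its relative Mmp15, for MT2-MMP, fell further, with 582, 608 and 674 counts against 100, 94 and 85 (6.40-fold lower, log2 fold change -2.68, SE 0.14, adjusted p = 2.9e-07 in edgeR). Mmp24, for MT5-MMP, had 178, 151 and 168 counts against 61, 72 and 47 (log2 fold change -1.41, SE 0.25, adjusted p = 0.00085 in edgeR), and shares exon bases with BC029722. Mmp17, for the lipid-anchored MT4-MMP, had 66, 36 and 44 counts against 2, 2 and 18, where the 18 belong to EphA4 knockout replicate 3. Its log2 fold change was -2.66 (SE 0.77, adjusted p = 0.013 in edgeR), became -4.41 without that library, and was -2.31 without control replicate 1, where it no longer passed (adjusted p = 0.062). Mmp16 and Mmp25 had 5 and 2 counts over all libraries.

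Among the remaining Mmp genes, Mmp19 and Mmp28 were nearly lost. Mmp19, a basement membrane protease gene, had 228, 153 and 181 counts in control against 5, 1 and 4 in the knockout-labelled libraries, 52.1-fold lower (log2 fold change -5.70, SE 0.48, adjusted p = 6.7e-06 in edgeR). Mmp28, for epilysin, an enzyme also made by keratinocytes, had 37, 55 and 75 counts against 2, 5 and 2 (log2 fold change -4.09, SE 0.52, adjusted p = 9.9e-05 in edgeR). Mmp19 shares exon bases with Gm47093 and Tmem198b, Mmp28 with 1700020L24Rik, and Mmp12 with Mmp1b. Mmp12, for macrophage elastase, and Mmp23 did not pass: their counts were 17, 21 and 27 against 8, 5 and 17, and 17, 13 and 29 against 2, 10 and 10. The Mmp12 value of 17 belongs to EphA4 knockout replicate 3, and without that library Mmp12 had a log2 fold change of -1.59 in place of -1.04 and passed (adjusted p = 0.036 in edgeR). Mmp20 had 4 counts in all, and Mmp7, Mmp21 and Mmp27 had 0 in every library; 0 counts over a group allow a level of up to 0.0264 CPM in control and 0.0273 CPM in the knockout-labelled libraries.

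Among ADAMTS genes for proteoglycan-cutting enzymes, members moved in opposite directions. Adamts1, for an enzyme that cuts versican and aggrecan, rose: its counts were 2715, 2639 and 3031 in control against 4580, 4917 and 4732 in the knockout-labelled libraries, a change from 73.6 ± 1.04 to 130 ± 2.81 CPM (SD, n = 3 each; log2 fold change 0.82, SE 0.04, adjusted p = 1.3e-07 in edgeR). Adamts4, for an aggrecanase, fell 11.0-fold, with 689, 656 and 739 counts against 73, 63 and 45 (log2 fold change -3.46, SE 0.19, adjusted p = 4.8e-07 in edgeR). For both genes the groups were far apart. Adamts5, for the other main aggrecanase, had 49, 74 and 84 counts against 95, 65 and 63, with overlapping ranges (log2 fold change 0.17, SE 0.31, adjusted p = 0.63 in edgeR). Adamts9 had 186, 221 and 189 counts against 160, 148 and 126; the ranges did not overlap, but the log2 fold change of -0.41 (SE 0.21) did not pass (adjusted p = 0.11 in edgeR). Adamts8 had 35 counts over control and 4 over the knockout-labelled libraries and was not tested, and Adamts15 and Adamts20 had 0 in every library. Adamts9 shares exon bases with A730049H05Rik and Gm15737, and Adamts8 with Gm29724.

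The procollagen N-proteinases trim collagen precursors before fibrils form. Adamts14 was well expressed in control and close to lost in the other group, with 1388, 1393 and 1480 counts against 12, 11 and 20. This was a fall from 37.5 ± 1.97 to 0.393 ± 0.133 CPM (SD, n = 3 each), or 94.5-fold, the largest among members with counts in both groups (log2 fold change -6.56, SE 0.17, adjusted p = 9.1e-09 in edgeR). Adamts2 had 3, 17 and 5 counts in control and 0 in every knockout-labelled library, at least 8.05-fold lower with the empty group set to 3 counts in total, and was too low for the test. Adamts3 had 5 counts, all in EphA4 knockout replicate 3.

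All 4 tested ADAMTS genes of other types fell. Adamts7, for an enzyme that cuts cartilage oligomeric matrix protein, had 463, 407 and 421 counts in control against 28, 33 and 74 in the knockout-labelled libraries, the 74 in EphA4 knockout replicate 3 (9.21-fold lower, log2 fold change -3.20, SE 0.35, adjusted p = 4e-05 in edgeR). Its log2 fold change was -3.70 without that library, and its exons overlap Tbc1d2b. Adamts6 had 323, 333 and 350 counts against 57, 86 and 77 (log2 fold change -2.14, SE 0.20, adjusted p = 1.4e-05 in edgeR). Adamts10, whose product binds fibrillin microfibrils, fell least of the 4, with 743, 600 and 830 counts against 247, 307 and 305 (log2 fold change -1.27, SE 0.12, adjusted p = 1.4e-05 in edgeR). Adamts17 had 47, 37 and 35 counts against 5, 7 and 10 (log2 fold change -2.37, SE 0.44, adjusted p = 0.0011 in edgeR). Adamts16, Adamts18 and Adamts13 had 30, 4 and 2 counts in all, and Adamts12 and Adamts19 had 0 in every library.

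**Figure D2:**
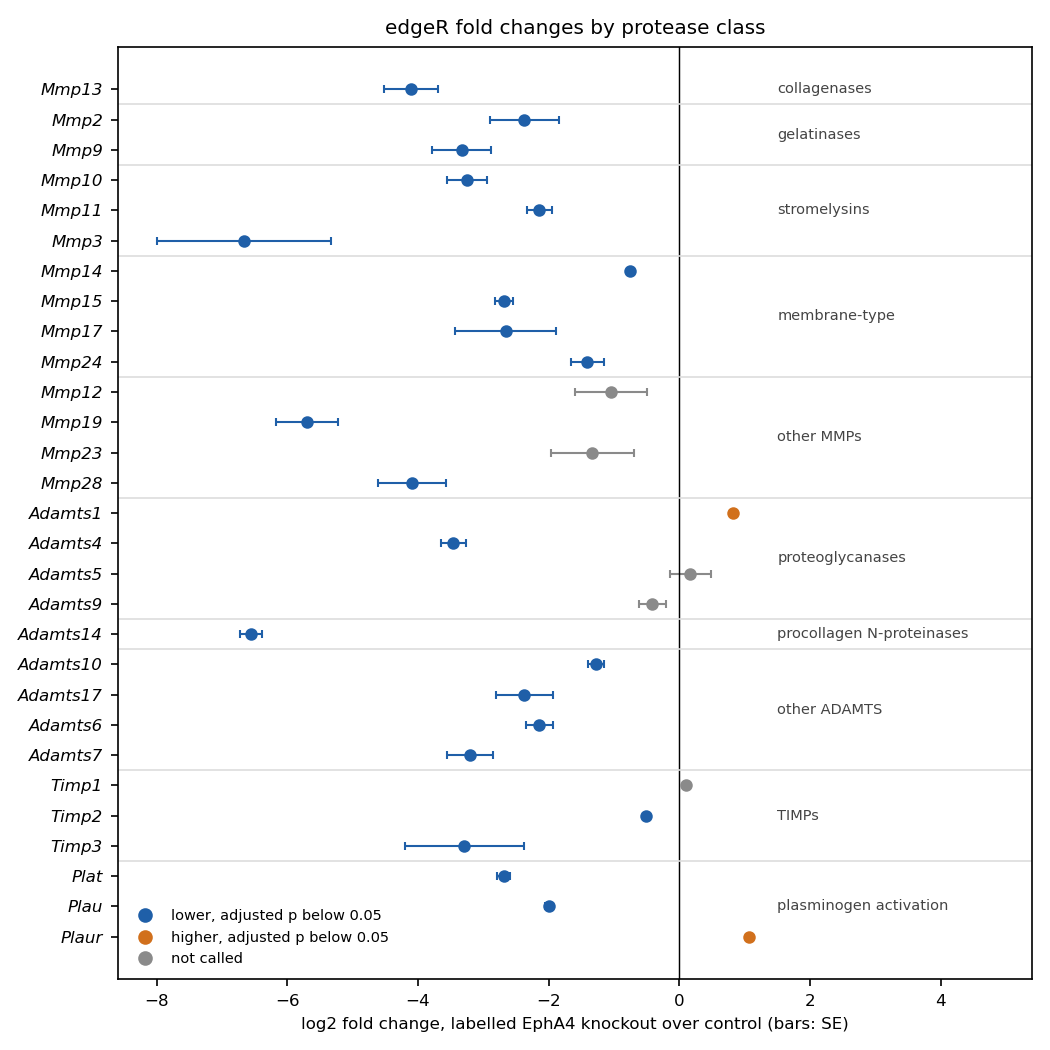
Log2 fold change of the libraries labelled EphA4 knockout over control for the 29 tested genes, grouped by class, with bars for the SE; blue is lower and orange higher at an adjusted p below 0.05, and grey is not called. Adamts1 and Plaur are the 2 genes called higher, the smallest called falls are Timp2 (-0.51) and Mmp14 (-0.75), and the value of Mmp3, at 0 counts in 1 group, depends on the prior count of the fit.

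Of the 3 tested inhibitor genes, Timp2 and Timp3 fell and Timp1 did not pass. Timp2, whose product inhibits metalloproteinases and also takes part in activating the Mmp2 product together with MT1-MMP, was the most abundant of the 49 genes per kilobase of exon in both groups. It had 28646, 27234 and 31244 counts in control against 19458, 20175 and 19208 in the knockout-labelled libraries, a fall of 1.42-fold from 765 ± 12.9 to 538 ± 13.2 CPM (SD, n = 3 each; log2 fold change -0.51, SE 0.04, adjusted p = 2.1e-06 in edgeR). Timp1, a secreted inhibitor known to be induced by serum and cytokines, had 2406, 2367 and 2904 counts against 2700, 2550 and 2618, with overlapping ranges at 67.2 ± 2.39 and 72.0 ± 3.26 CPM (SD, n = 3 each). Its log2 fold change of 0.10 (SE 0.05) did not pass (adjusted p = 0.11 in edgeR). It passed as higher with relative log expression factors (adjusted p = 0.049), without control replicate 3 (adjusted p = 0.029) and without EphA4 knockout replicate 3 (adjusted p = 0.028), at log2 fold changes of 0.13, 0.17 and 0.16. Timp3, for the inhibitor that binds to matrix, had 11, 11 and 12 counts against 2, 1 and 0, a ratio of 11.0 with an exact 95% binomial interval of 3.44 to 55.7 that covers counting error only (adjusted p = 0.010 in edgeR). The Timp3 log2 fold change moved from -3.29 to -4.13 without EphA4 knockout replicate 1, and its exons overlap Syn3. Timp4 had 3 counts in all.

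In the plasminogen activation system the proteases fell while the receptor rose. Plau, for urokinase, had 8831, 7815 and 9320 counts in control against 2105, 1931 and 2210 in the knockout-labelled libraries, a fall of 3.99-fold from 228 ± 9.16 to 57.1 ± 4.19 CPM (SD, n = 3 each; log2 fold change -2.00, SE 0.06, adjusted p = 1.4e-08 in edgeR). Plat, for tissue plasminogen activator, had 1138, 1038 and 1178 counts against 146, 188 and 165 (6.46-fold lower, log2 fold change -2.69, SE 0.10, adjusted p = 6.6e-08 in edgeR). Plaur, for the urokinase receptor, had 1949, 1812 and 2208 counts against 3823, 4086 and 3980, a rise from 52.3 ± 0.868 to 109 ± 1.93 CPM (SD, n = 3 each; log2 fold change 1.06, SE 0.04, adjusted p = 5e-08 in edgeR). Every library of one group lay outside the range of the other for all 3 genes. Per kilobase of exon the ratio of Plau to Plaur was 5.01, 4.77 and 4.67 in the control libraries and 0.609, 0.523 and 0.614 in the knockout-labelled ones, so urokinase transcripts exceeded receptor transcripts in control and fell below them in the other group.

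**Figure D3:**
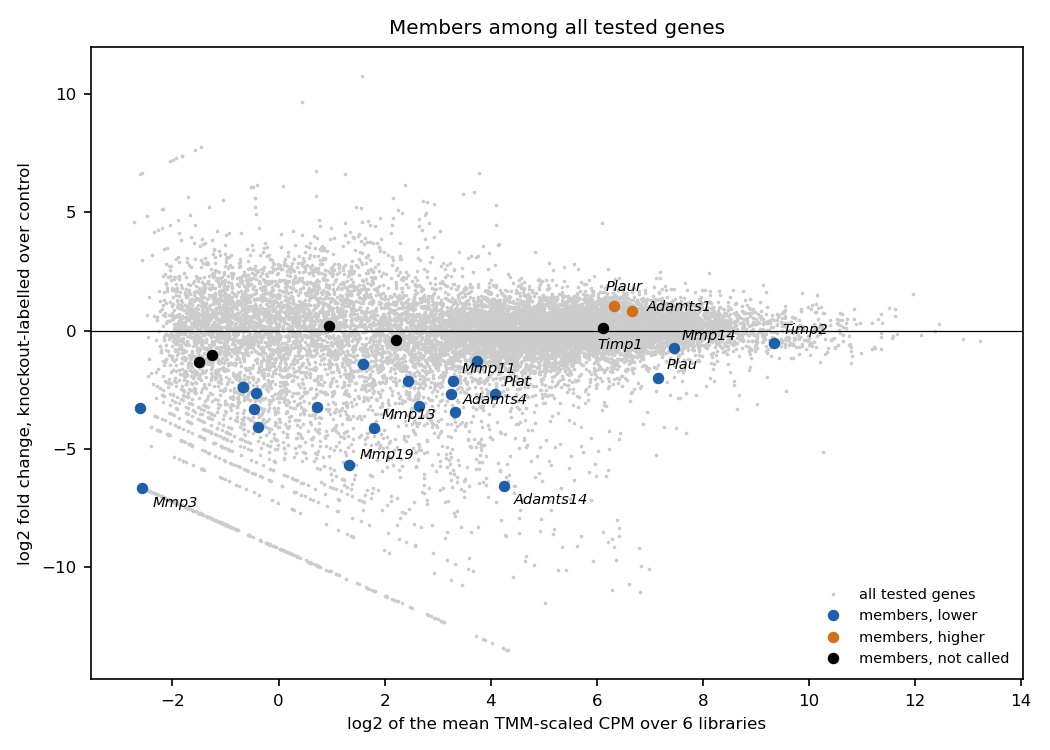
Log2 fold change against the log2 of the mean TMM-scaled CPM over 6 libraries for all 15199 tested genes (grey) and the 29 tested members (blue called lower, orange called higher, black not called). Members with the highest means, Timp2, Mmp14, Plau, Adamts1, Plaur and Timp1, lie between -2.00 and 1.06, while Adamts14 stands at -6.56 at a moderate mean.

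The order of the genes by level also changed. Per kilobase of exon, the leading genes in control were Timp2 at 196 ± 3.31 CPM, Plau at 96.2 ± 3.87, Timp1 at 75.7 ± 2.70, Mmp14 at 36.8 ± 0.269, Plaur at 20.0 ± 0.332, Adamts1 at 13.9 ± 0.197 and Adamts14 at 7.21 ± 0.379 CPM per kb (SD, n = 3). In the knockout-labelled libraries they were Timp2 at 138 ± 3.39, Timp1 at 81.0 ± 3.67, Plaur at 41.5 ± 0.738, Adamts1 at 24.5 ± 0.529, Plau at 24.1 ± 1.77 and Mmp14 at 21.9 ± 0.618 CPM per kb (SD, n = 3), followed by Mmp11 at 1.30 ± 0.316. Plau thus dropped from the second to the fifth place, where it and Adamts1 did not differ beyond their spread.

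Within each protease family the levels were more uneven in the knockout-labelled libraries. The summed level of the 23 Mmp genes per kilobase of exon was 55.4, 53.8 and 52.6 CPM per kb in control against 25.4, 25.1 and 23.5 in the knockout-labelled libraries. Of that sum Mmp14 made up 67.0%, 68.0% and 69.9% in control against 88.5%, 87.2% and 90.3% in the knockout-labelled libraries, while the sum of the other Mmp genes was 17.1 ± 1.23 and 2.81 ± 0.482 CPM per kb (SD, n = 3 each). The Adamts sum differed less, at 31.1, 31.5 and 30.1 against 26.4, 27.5 and 26.7 CPM per kb. Adamts1 made up 44.4%, 44.7% and 45.6% of it in control against 91.4%, 91.4% and 91.0% in the knockout-labelled libraries, and the other Adamts genes summed to 17.0 ± 0.578 and 2.35 ± 0.0673 CPM per kb (SD, n = 3 each). The ratio of the Timp sum to the Mmp sum was 4.90, 5.08 and 5.15 in control against 8.85, 8.68 and 9.11 in the knockout-labelled libraries, and that of Timp2 to Mmp14 was 5.34, 5.41 and 5.24 against 6.21, 6.41 and 6.31. None of these quantities overlapped between the groups. They are ratios of transcripts and say nothing of enzyme activity, which was not measured.

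**Figure D4:**
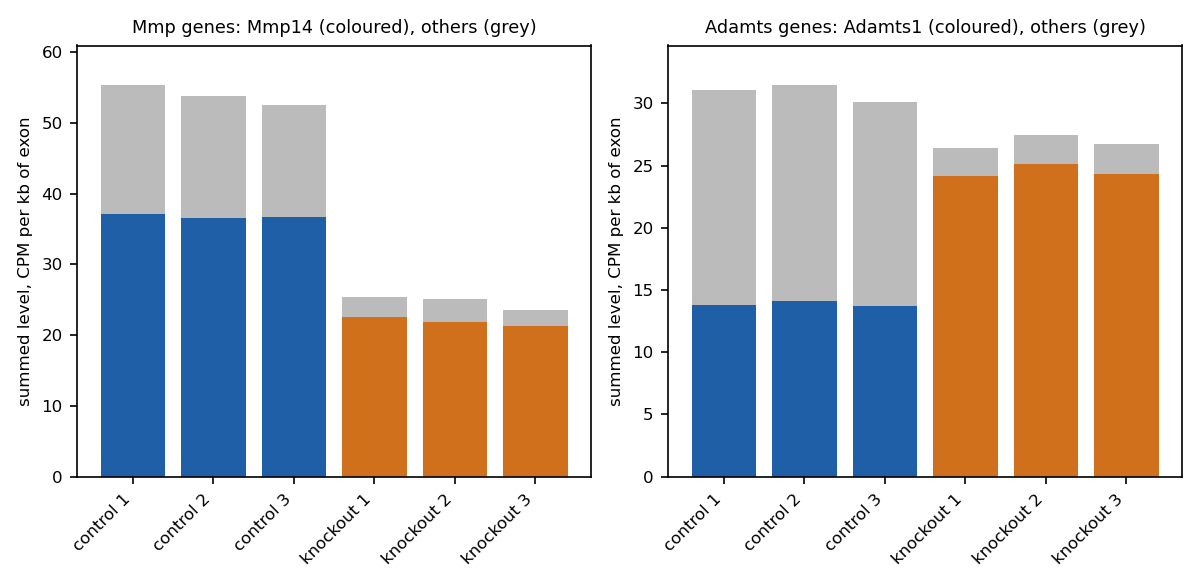
Stacked bars, 1 per library and starting at 0, of the summed level in CPM per kb of exon of the 23 Mmp genes (left) and the 19 Adamts genes (right), with Mmp14 or Adamts1 in colour (blue control, orange knockout-labelled) and all other genes of the family in grey. The grey part shrinks from 17.1 to 2.81 CPM per kb in the Mmp bars and from 17.0 to 2.35 in the Adamts bars, while Adamts1 itself is higher in the knockout-labelled libraries.

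Other genes of proteolysis at the cell surface and of matrix turnover mostly fell too. Of 70 such genes listed, 48 were tested. Of those 35 fell, 6 rose and 7 did not pass, with a median log2 fold change of -1.06. Among all genes tested 38.8% were lower and 32.7% higher. The companion counts were not split by filter level. Some of these genes, such as Serpine2, reached that level through control alone, and of all tested genes of that kind 81.8% were called lower. The share that fell is thus partly set by the filter. ADAM sheddases and related metalloproteases fell in 8 of 10 tested and rose in 1, ADAMTS-like proteins fell in 4 of 5, inhibitors fell in 7 of 10 and rose in 1, serine proteases and their activators fell in 7 of 13 and rose in 3, and receptors and other matrix enzymes fell in 9 of 10 and rose in 1. The genes named next, other than Adam10 and Plg, are among the 8 called genes of at least 5 CPM that changed most. Serpine2, for protease nexin-1, an inhibitor of urokinase, had 568, 575 and 588 counts in control and 0 in every knockout-labelled library (adjusted p = 1.8e-07 in edgeR). Lrp1, a receptor that takes up complexes of proteases and inhibitors, fell from 89.3 ± 5.98 to 5.99 ± 0.420 CPM (SD, n = 3 each; adjusted p = 2.6e-09 in edgeR). Hpse, for heparanase, fell from 18.6 ± 0.718 to 0.447 ± 0.392 CPM and Ece1, for endothelin-converting enzyme, from 89.0 ± 3.05 to 2.26 ± 0.173 CPM (SD, n = 3 each; adjusted p = 8.9e-06 and 8e-10 in edgeR). Adam12 was the exception among the leading changes and rose 3.40-fold, going from 36.6 ± 0.109 to 124 ± 5.39 CPM (SD, n = 3 each; adjusted p = 7.8e-09 in edgeR). Adam8 fell by 1.72 and Adamtsl5 by 3.06 on the log2 scale, while Adam10, a main sheddase gene, had 161 ± 5.61 and 155 ± 2.57 CPM (SD, n = 3 each; adjusted p = 0.17 in edgeR). Plg, which encodes plasminogen itself, had 0 counts in every library.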

How the data were processed

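The 6 samples were grouped by the genotype in their titles, 3 control and 3 EphA4 knockout. The deposited file is 1 table of raw, unscaled read counts by gene symbol. Per the submitters' processing notes, reads were aligned with STAR to GRCm39; how reads were counted, with which strand setting and annotation, is not given in the sources used here, so reads of overlapping genes (13 of the 49 members share exon bases with another gene of GENCODE M21; the text names only some of these overlaps) and of close paralogs cannot be assigned with certainty. Exon lengths come from that release, which is on an earlier assembly.

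After filterByExpr, 15199 of 28042 genes with any count remained. They were scaled with TMM and tested in edgeR 4.0.16 (glmQLFit and glmQLFTest on group alone, two-sided; R 4.3.3), with Benjamini-Hochberg adjustment over all of them and calls at 0.05. SE values come from the fold change and the F statistic. CPM are TMM-scaled, except that marker sums use library totals. Depth gives 1 count a value of 0.0239 to 0.0285 CPM; floors of 3 counts over a group cover counting error only.

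Members and lists were chosen with earlier results of these data known. All 6 values are given for called members of at least 1 CPM in either group, members at 0 in 1 group with at least 10 counts in the other, uncalled members of at least 10 CPM and a few more. Companion genes named are the 8 largest called changes at 5 CPM or more, with Adam10 and Plg added after their values were seen; 1 of the 8 is not reported here. Alternatives were relative log expression factors, library size alone, no filter, 5 CPM in 3 libraries, DESeq2 1.42.0, limma-voom (limma 3.58.1), a replicate block, a threshold of 0.01, and each replicate left out. The fit was also run on simulated counts in which a small set of genes was lowered and none raised. In these data 71.5% of genes tested were called in either direction, so that run does not check the scaling here.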

Additional observations from a re-analysis of the deposited data

How the results depend on the processing

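The 22 lower and 2 higher calls among members, and the 35 lower and 6 higher among companion genes, were 22 and 2, and 35 and 6, with a replicate block on the sample numbers, where the log2 fold change of Epha4 was 0.86. With that block 5715 of all 15199 genes tested were lower and 4624 higher. Deviations of same-numbered samples correlated at -0.003 to 0.029, and those of differently numbered samples at -0.020 to 0.009. These values show no clear pairing by sample number but cannot settle what the numbers mean. Over the 14 alternatives, no member of the 392 values computed changed sign after being called, 386 kept their side of the threshold, 2 lost it (Mmp17) and 4 gained it (Timp1 and Mmp12). A filter of 5 CPM in 3 libraries left 15 members and 34 companion genes to test, of which 12 and 23 were lower, with a median member log2 fold change of -2.12. Of all 10519 genes tested with that filter, 4383 were lower and 4298 higher. With no filter the median was -2.21 over 41 members, of which 23 were lower and 2 higher, and Adamts2 was also called lower. Of all 28042 genes tested without a filter, 6360 were lower and 4867 higher, with a median of -0.03. Leaving out 1 replicate gave 21 to 23 members lower, 2 to 3 higher, a median of -2.35 to -2.11, 33 to 36 companion genes lower and 6 to 7 higher, and 0.86 to 0.95 for Epha4. Over all 15764 to 15941 genes tested in those fits, 5330 to 6029 were lower and 4675 to 5309 higher. DESeq2 and limma-voom each called 22 members lower and 2 higher. Of all 15199 genes tested, DESeq2 called 5703 lower and 5080 higher, and limma-voom 6000 lower and 4868 higher. The fold changes of Mmp3, Timp3 and Mmp17 rest on few counts in the knockout-labelled libraries.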

Other observations

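Genes for transcription factors with known roles at metalloproteinase promoters went both ways, and their levels are given as a description. Of 16 such genes listed, 10 were called lower and 5 higher. Over all genes tested 38.8% were lower and 32.7% higher. Among the AP-1 genes, Fos fell from 94.4 ± 8.49 to 1.16 ± 0.206 CPM and Fosb from 51.9 ± 8.24 to 5.85 ± 0.608 CPM (SD, n = 3 each). Junb had 558 ± 8.05 and 168 ± 1.71 CPM, Jun 123 ± 2.65 and 59.2 ± 5.65 CPM, and Jund 466 ± 8.94 and 233 ± 7.11 CPM. Fosl1 was higher in the knockout-labelled libraries, at 198 ± 9.53 against 117 ± 3.13 CPM. Of the ETS family genes, Ets1 had 84.9 ± 1.04 and 80.9 ± 2.32 CPM, Ets2 89.4 ± 4.89 and 106 ± 6.26 CPM, and Etv4 125 ± 2.59 and 77.9 ± 7.11 CPM. Runx2, which acts at the Mmp13 promoter in bone cells, had 59.2 ± 4.93 and 45.5 ± 1.01 CPM. Its relative Runx1 went the other way, with 121 ± 4.17 and 148 ± 3.30 CPM. Fosl2, Etv5 and Elk3, also listed, were called lower. The NF-kB subunit genes Rela and Nfkb1 had 131 ± 3.03 and 199 ± 3.72 CPM, and 120 ± 9.03 and 159 ± 6.60 CPM, with the higher level in the knockout-labelled libraries. Whether any of these factors bears on the protease genes was not tested.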
